A study of Mus musculus with 2 samples.

Results

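Interferon-responsive microglia were the microglial nuclei with at least 3 unique molecular identifiers (UMIs, each counting 1 captured RNA molecule) summed over 7 interferon genes: *Ifit2*, *Ifit3*, *Rsad2*, *Cxcl10*, *Oasl1*, *Iigp1* and *Isg15*. A nucleus counted as microglial if it had at least 10 UMIs of *Inpp5d*, *Csf1r*, *Cx3cr1*, *Dock8*, *Runx1*, *Ly86* and *Cd84* per 10000 UMIs and little signal of oligodendrocytes, astrocytes and border macrophages. By this rule, 69 of the 20594 nuclei that passed the filter were interferon-responsive microglia, and the other 1838 of 1907 microglia served as their reference. The nuclei came from single-nucleus RNA sequencing of hippocampi of male mice aged 9 months, with 1 library per genotype, labelled as pooled. PS19 mice express a disease mutant of human tau under the prion promoter, mainly in neurons, and kept wild-type *Zbp1*. PZKO mice are PS19 mice that lack *Zbp1*, so both groups carried the tau transgene, and mice without it were not part of the comparison. Of the interferon-responsive microglia, 24 were in the PS19 library and 45 in the PZKO library. Because a genotype was a single library, no test was made and the difference between genotypes cannot be told apart from that between libraries. Nuclei of a library are not replicates, and the 95% intervals given here are exact and cover counting error only.

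Microglia are the resident macrophages of the brain. Type I interferons bind the receptor IFNAR and, through the kinases JAK1 and TYK2, activate transcription factors that bind promoters of interferon-stimulated genes (ISGs), many of which encode antiviral proteins, nucleic acid sensors and chemokines. A small group of microglia with high ISG expression has been described in aged, infected and degenerating brains. ZBP1 itself is an ISG product that senses nucleic acids in the left-handed Z form.

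*Zbp1* (ENSMUSG00000027514, chromosome 2 from 173206612 to 173218923 on the minus strand in GRCm38) was lower in the PZKO library but not absent. Over all nuclei that passed the filter, 109 UMIs of it were counted in PS19 and 50 in PZKO. In interferon-responsive microglia it had 13 UMIs in 7 PS19 nuclei and 8 UMIs in 8 PZKO nuclei, a log2 ratio of PZKO over PS19 of −1.59 (95% interval −3.06 to −0.21). Other microglia held 36 and 15 UMIs. Reads counted over the whole gene do not show which part of it was deleted. Within each library *Zbp1* was itself among the genes most enriched in interferon-responsive microglia, with log2 ratios over other microglia of 3.51 (2.47 to 4.46) in PS19 and 3.24 (1.79 to 4.57) in PZKO.

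The 7 microglial genes of the rule, which admitted both groups of nuclei, had a median of 76.3 UMIs per 10000 in PS19 and 81.5 in PZKO, against 79.6 and 83.5 in other microglia. Summed over nuclei their log2 ratio over other microglia was −0.23 (−0.33 to −0.13) in PS19 and 0.11 (0.05 to 0.18) in PZKO, and 0.12 and −0.06 without nuclei that held strong signal of a second cell type. Of microglial genes that the rule did not use, *P2ry12* had 59 UMIs in 13 of the 24 nuclei in PS19 and 137 in 30 of the 45 in PZKO, and *Siglech* had 28 UMIs in 10 and 47 in 19 nuclei. Their log2 ratios over other microglia were −0.39 (−0.79 to −0.02) and −0.22 (−0.48 to 0.02) for *P2ry12* and −0.59 (−1.19 to −0.05) and −0.86 (−1.31 to −0.44) for *Siglech*. The border macrophage genes *Mrc1* and *F13a1* summed to 1 UMI in PS19 and 0 in PZKO, a level that the rule kept low. Interferon-responsive nuclei were deeper than other microglia, with medians of 4798.5 UMIs in PS19 and 4715 in PZKO against 3252.5 and 4107. None of their barcodes occurred in both libraries, while 47 barcodes were shared in all and 7 microglial nuclei carried a shared one.

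Some of these nuclei held strong signal of a second cell type. Counted as such were nuclei with at least 50 UMIs per 10000 of 5 endothelial, T cell, ependymal or fibroblast genes, or 100 of 8 neuronal genes, limits that were chosen after the data had been seen. They made up 8 of 24 nuclei in PS19 (3 endothelial, 2 T cell, 1 neuronal and 2 ependymal) and 6 of 45 in PZKO (1 endothelial, 4 T cell and 1 fibroblast), against 6.24% and 8.17% of other microglia. The nucleus with the most selecting UMIs in PS19 was one of them, with 70.0 UMIs per 10000 of ciliated ependymal genes and only 29.0 of the microglial genes. Scrublet, a doublet caller run as an alternative, kept 22 and 43 of the 24 and 45 nuclei, and whether the second signal came from doublets or from free RNA was not tested further. Each main result is therefore given also without them, over 16 PS19 and 39 PZKO nuclei and the remaining other microglia.

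Interferon-responsive microglia were a larger share of microglia in PZKO than in PS19. They were 24 of 1066 microglia in PS19, or 2.25% (95% Clopper-Pearson interval 1.45% to 3.33%), and 45 of 841 in PZKO, or 5.35% (3.93% to 7.09%), a log2 ratio of 1.25. Leaving out nuclei of a second type, the shares were 1.61% (0.924% to 2.60%) and 5.06% (3.63% to 6.86%). The intervals of the libraries did not overlap in either case. PZKO microglia were the deeper ones, with a median of 4144 UMIs against 3275.5, and deeper nuclei reach 3 UMIs more easily. After each microglial nucleus was thinned to 2000 UMIs, which left out 179 PS19 and 90 PZKO nuclei with fewer, the mean shares were 0.761% and 3.61%. Among microglia with at least 3000 UMIs they were 3.06% (1.85% to 4.74%) and 5.92% (4.18% to 8.10%), and these intervals overlapped.

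The gap between the libraries lay in the nuclei with many selecting UMIs, not in those near the threshold. Nuclei with 3 or 4 UMIs of the 7 genes numbered 17 in each library, 1.59% of PS19 and 2.02% of PZKO microglia. Nuclei with at least 10 UMIs numbered 1 in PS19 and 17 in PZKO, and the PS19 nucleus was the one with ependymal genes. The number of selecting UMIs ranged from 3 to 20 with a median of 3.5 in PS19, and from 3 to 79 with a median of 7 in PZKO. The highest value in PS19 was 8 once nuclei of a second type were left out. At least 4 of the 7 genes were detected together in 3 of the 24 nuclei in PS19 and in 17 of the 45 in PZKO, where 1 nucleus held all 7. The nucleus with 79 selecting UMIs held 41 of *Cxcl10*, 18 of *Ifit2*, 15 of *Rsad2*, 4 of *Ifit3* and 1 of *Oasl1*, beside 588 UMIs of other ISGs per 10000. Just inside the threshold lay 21 nuclei with 3 UMIs and just outside it 52 microglia with 2 UMIs.

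**Figure D1:**
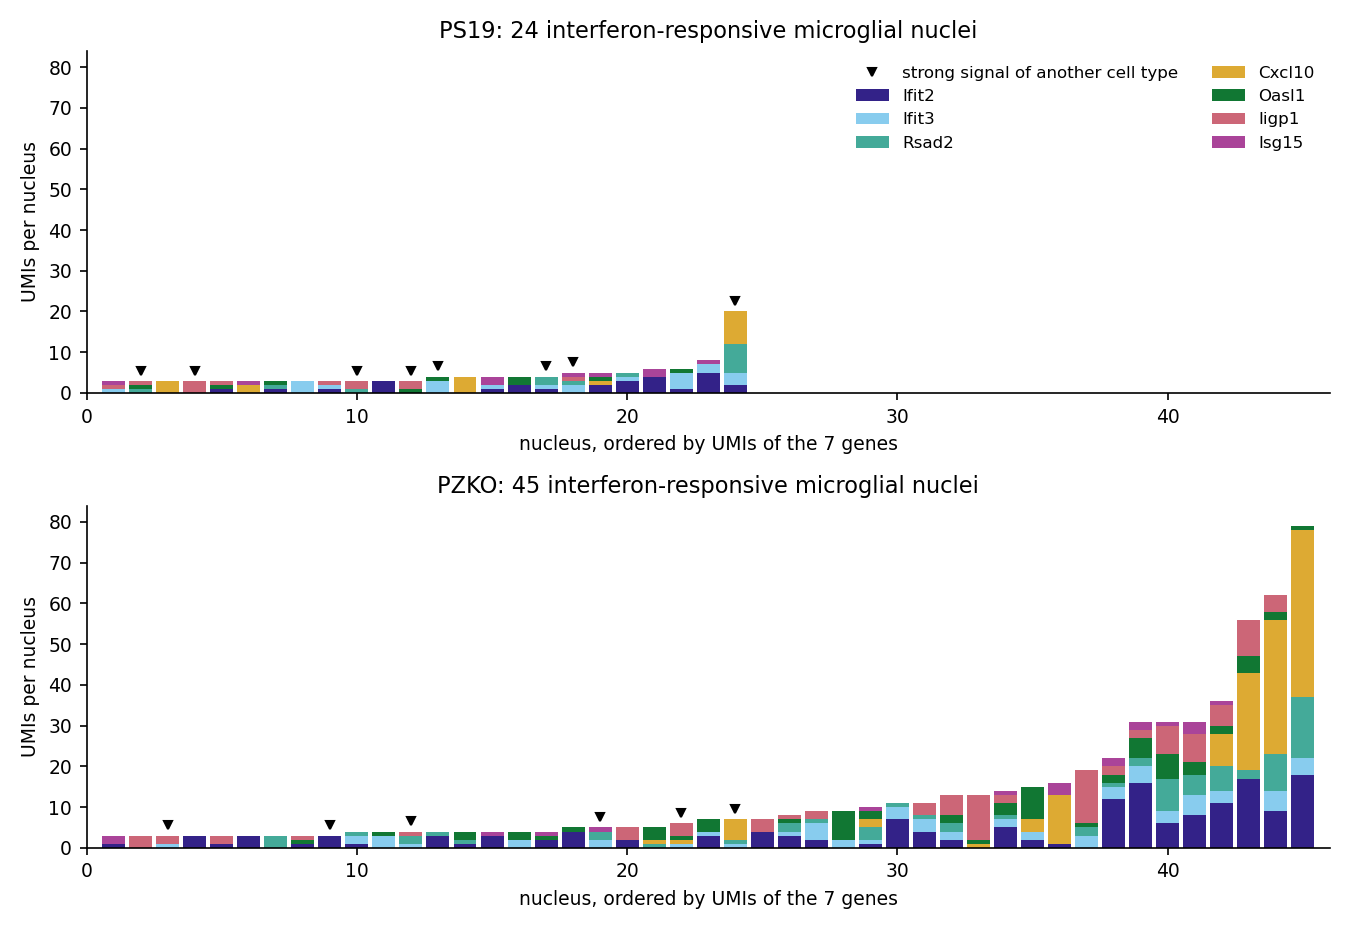
UMIs of the 7 selecting genes in each interferon-responsive microglial nucleus, ordered within PS19 (24 nuclei) and PZKO (45 nuclei), with the genes stacked in colour. PS19 nuclei reach 20 UMIs and PZKO nuclei 79, and *Cxcl10* makes up much of the tallest PZKO columns.

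The 7 selecting genes encode proteins of the antiviral response. *Ifit2* and *Ifit3* belong to the same antiviral family, *Rsad2* (viperin) makes a chain-terminating nucleotide and *Oasl1* belongs to the family of oligoadenylate synthetases. *Iigp1* is an interferon-inducible GTPase, *Isg15* is a ubiquitin-like modifier and *Cxcl10* attracts T cells. *Ifit2* was the most abundant, with 27 UMIs in 13 nuclei of PS19 and 159 in 32 nuclei of PZKO. *Cxcl10* was in the fewest nuclei, with 18 UMIs in 5 PS19 nuclei and 131 UMIs in 11 PZKO nuclei, of which 41 were in 1 nucleus. *Rsad2* had 14 UMIs in 7 and 73 in 24 nuclei, *Oasl1* 9 in 8 and 65 in 25, *Iigp1* 12 in 8 and 91 in 22, *Ifit3* 22 in 11 and 64 in 26, and *Isg15* 9 in 7 and 19 in 12. Since these genes chose the nuclei, their excess is part of the rule.

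Each selecting gene was therefore also measured in nuclei that the other 6 genes alone would have chosen. In PZKO all 7 genes were higher in such nuclei than in the remaining microglia, with log2 ratios from 3.44 for *Isg15* (2.48 to 4.36) to 6.98 for *Cxcl10* (6.26 to 7.78). In PS19 the ratios of 6 genes lay between 2.62 for *Oasl1* (0.23 to 4.38) and 4.13 for *Rsad2* (2.81 to 5.33). *Iigp1* had 1 UMI in the 17 such PS19 nuclei and a ratio of 0.51 (−4.84 to 3.10), which does not set it apart from 0. The PS19 values rested in part on nuclei of a second type, which held 12 of the 14 UMIs of *Rsad2*, 9 of 12 of *Iigp1*, 9 of 22 of *Ifit3* and 8 of 18 of *Cxcl10*. Without them the intervals lay above 0 in PS19 for *Ifit2* (3.70, with 9 UMIs), *Ifit3* (2.21, 0.28 to 3.66) and *Isg15* (3.65, 1.62 to 5.27). Those of *Oasl1* (2.75, −0.40 to 4.83), *Rsad2* (2.10, −3.33 to 4.88) and *Cxcl10* (1.35, −4.02 to 3.98) included 0, with 1 or 2 UMIs each, and *Iigp1* had 0 UMIs. In PZKO all 7 stayed above 0, from 3.27 for *Isg15* (2.28 to 4.21) to 7.39 for *Cxcl10* (6.53 to 8.38).

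The promoters of 4 of these genes, and of *Ifit1* from the same family, hold the letters of the element known to be bound by interferon-activated factors. The element was searched on both strands as GAAANNGAAA, which reads TTTCNNTTTC on the other strand, from 250 bases before to 50 after the gene start in RefSeq on GRCm38.p6. It lay in the window of 4 of the 6 selecting genes with an entry, of 25 of 53 other ISGs (47.2%), of 2 of 23 disease-associated microglia genes and of 0 of 16 homeostatic genes, against 3.99% of 27025 genes. The 250 bases before the start are shown for 5 genes that set the group apart, and they hold all matches of these genes. They are chr5:92348890-92349139 (minus strand) for *Cxcl10*, chr19:34640639-34640888 (plus) for *Ifit1*, chr19:34583279-34583528 (plus) for *Ifit3*, chr4:156200819-156201068 (minus) for *Isg15* and chr12:26456453-26456702 (minus) for *Rsad2*. They read 5′ to 3′ in the direction of the gene, with matches in capitals.
Cxcl10: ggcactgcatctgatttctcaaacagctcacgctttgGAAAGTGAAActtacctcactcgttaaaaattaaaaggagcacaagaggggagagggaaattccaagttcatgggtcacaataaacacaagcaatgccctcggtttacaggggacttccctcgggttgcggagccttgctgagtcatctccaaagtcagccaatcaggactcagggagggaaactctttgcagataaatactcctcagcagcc
Ifit1: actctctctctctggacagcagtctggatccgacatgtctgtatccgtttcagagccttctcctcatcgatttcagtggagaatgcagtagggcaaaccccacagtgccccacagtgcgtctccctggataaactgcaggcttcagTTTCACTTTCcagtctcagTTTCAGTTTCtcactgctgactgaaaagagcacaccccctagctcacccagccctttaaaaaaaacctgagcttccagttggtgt
Ifit3: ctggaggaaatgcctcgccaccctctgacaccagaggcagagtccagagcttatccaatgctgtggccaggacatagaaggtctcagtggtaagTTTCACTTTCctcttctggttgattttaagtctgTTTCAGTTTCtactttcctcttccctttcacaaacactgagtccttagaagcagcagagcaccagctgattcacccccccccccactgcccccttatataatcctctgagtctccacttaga
Isg15: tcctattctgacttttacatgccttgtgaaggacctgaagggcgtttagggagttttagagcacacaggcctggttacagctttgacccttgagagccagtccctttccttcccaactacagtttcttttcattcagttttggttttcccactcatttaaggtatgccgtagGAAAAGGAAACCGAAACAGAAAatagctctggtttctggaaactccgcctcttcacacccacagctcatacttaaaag
Rsad2: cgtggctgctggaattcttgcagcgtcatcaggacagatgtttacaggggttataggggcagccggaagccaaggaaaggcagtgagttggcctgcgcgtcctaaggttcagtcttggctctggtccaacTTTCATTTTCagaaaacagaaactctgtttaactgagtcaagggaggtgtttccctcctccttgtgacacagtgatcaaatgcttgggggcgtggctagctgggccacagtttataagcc
*Cxcl10* and *Rsad2* had 1 match each, *Ifit1* and *Ifit3* 2 each, and *Isg15* 3 that overlap into 1 run. A match is a stretch of letters and not a shown binding site, and *Ifit2* and *Oasl1* had no match in these windows.

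Other ISGs, which had no part in the choice of nuclei, were higher in interferon-responsive microglia of both libraries and more so in PZKO. The list holds 68 ISGs, of which 66 are in the files, and *Mx1* and *Mx2* were not analysed here. With UMIs scaled to the same total in every group of nuclei (CPM), their summed level was 12353 CPM in PS19 and 21585 CPM in PZKO, against 3928 and 4036 CPM in other microglia. This gave log2 ratios of 1.65 (1.58 to 1.73) and 2.42 (2.37 to 2.46), and of 1.84 (1.75 to 1.93) and 2.31 (2.26 to 2.36) without nuclei of a second type. Per nucleus, the median was 114 UMIs of these genes per 10000 in PS19 and 243 in PZKO, and 34.6 and 37.3 in other microglia.

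These other ISGs were higher in nuclei with more selecting UMIs, also below the threshold. In PS19 microglia they made up 35.6, 52.4 and 89.6 UMIs per 10000 in nuclei with 0, 1 and 2 selecting UMIs, 94.4 with 3 or 4, 213 (195 to 232) with 5 to 9, and 165 (141 to 192) in the 1 nucleus with more. In PZKO microglia the values were 35.1, 55.4 and 59.7 with 0, 1 and 2 UMIs, 144 with 3 or 4, 132 with 5 to 9, and 343 (331 to 355) with at least 10. The order was not even, since PZKO nuclei with 5 to 9 UMIs had no more than those with 3 or 4. Nuclei with 3 or 4 UMIs ranged widely in other ISGs, from 15.9 to 357 per 10000 in PS19 and from 32.2 to 442 in PZKO.

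**Figure D2:**
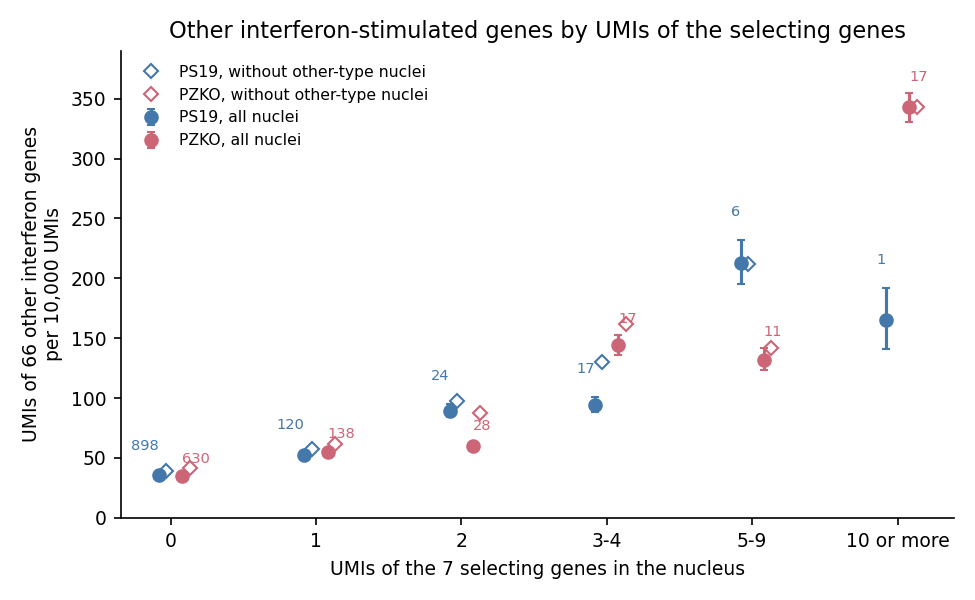
UMIs of 66 other interferon-stimulated genes per 10000 UMIs of microglia (y axis) by UMIs of the 7 selecting genes in the nucleus (x axis). Bars are exact Clopper-Pearson 95% intervals for counting error. The number of nuclei stands beside each point, and open symbols are without nuclei of a second type. Values rise from 35.6 (PS19) and 35.1 (PZKO) at 0 selecting UMIs to 343 in PZKO nuclei with at least 10.

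Across all genes with at least 50 UMIs in microglia, leaving out those of the rule, 12065 could be compared within each library. At least 2-fold higher in interferon-responsive microglia were 10.3% of genes in PS19, 7.22% in PZKO and 2.11% (254 genes) in both. The 95% interval of 142 of the 254 genes lay above 0 in both libraries. When nuclei of a second type were left out, 187 genes passed in both, of which 124 were among the 254. Of the other ISGs, 59 reached the minimum of UMIs, and 42 of them in PS19 and 57 in PZKO were at least 2-fold higher, with medians of 1.63 and 2.53 against −0.14 and −0.09 over all genes. A gene that reached the minimum only with the members' UMIs was favoured to be higher in them. Among the 59 these were *Ifi44*, *Ifit3b* and *Ifit1*, and of the 56 with at least 50 UMIs in other microglia alone 39 in PS19 and 54 in PZKO were at least 2-fold higher, against 9.79% and 6.82% of 11922 genes.

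**Figure D3:**
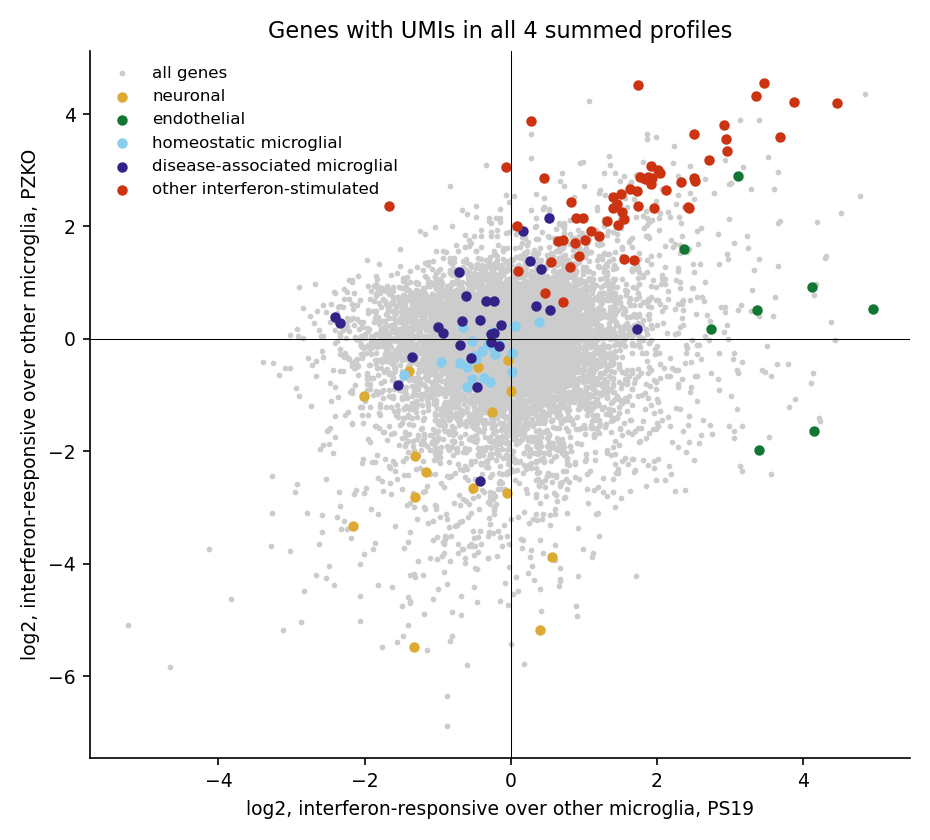
Log2 ratio of interferon-responsive over other microglia in PS19 (x axis) and PZKO (y axis), 1 point per gene with at least 50 UMIs in microglia and at least 1 UMI in each group compared, with other interferon-stimulated, homeostatic, disease-associated, neuronal and endothelial genes in colour. Of the 59 other interferon-stimulated genes, 57 lie above 0 in PS19 and 59 in PZKO.

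Genes were ranked by the lower limit of their interval in the library where it was lower. Among the first 20 were, besides *Zbp1*, 10 ISGs that kept their excess without nuclei of a second type, each found in 3 to 18 PS19 and 10 to 38 PZKO nuclei. *Ifit1* had 14 UMIs in 8 nuclei and 27 in 15, with log2 ratios of 4.47 (3.37 to 5.53) in PS19 and 4.20 (3.37 to 5.03) in PZKO. *Ifi44* had ratios of 3.88 and 4.22. Both reached the minimum only through the members, with 46 and 48 UMIs in other microglia of the libraries together, so their excess is in part fixed by the filter and their ratios are a description. *Irf7*, which encodes a transcription factor that amplifies interferon production, had 95 UMIs in other microglia and ratios of 3.68 and 3.59. The DNA-binding family on chromosome 1 was represented by *Ifi211* (3.46 and 4.55), *Ifi213* (2.92 and 3.81) and *Ifi209* (2.96 and 3.35). *Usp18*, which removes ISG15 from proteins and dampens signalling at IFNAR, had 38 UMIs in 14 PS19 nuclei and 101 in 31 PZKO nuclei, with ratios of 2.94 (2.39 to 3.46) and 3.56 (3.18 to 3.93). *Oasl2* had 2.71 and 3.18, *Herc6*, a ligase that attaches ISG15, 2.52 and 2.80, and *Ddx60* 2.43 and 2.32. All 10 stayed between 2.24 and 4.72 in both libraries without nuclei of a second type. The long noncoding RNA *Gm26797* had 3.02 and 2.77, in 5 and 10 nuclei.

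Other leading genes came from a few nuclei or from a second cell type. *Ms4a4c* had ratios of 3.35 and 4.32, but 90% of its 10 PS19 UMIs were in 1 nucleus, and without nuclei of a second type it had 0 UMIs there. The lymphocyte genes *Samd3* and *Ikzf3* and the gene *Atp8b4* had ratios from 2.78 to 3.66 in both libraries and no UMI in either library once nuclei of a second type were left out. *Samd3*, with 42 UMIs in other microglia, also reached the minimum only through the members. *Ifi203*, at 4.77 and 2.54, fell to 0 and 2 UMIs. *Fbxl7* (2.66 and 2.85) likewise had 0 UMIs left in PS19. In PZKO *Ms4a4c* had 27 UMIs in 12 nuclei and a ratio of 4.21 without these nuclei. *Fbxl7* had 26 UMIs in 4 PZKO nuclei, 57.7% of them in 1 nucleus, and 16 UMIs without nuclei of a second type.

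Of the other ISGs *Trim30a* had the most UMIs over all microglia. It lies on chromosome 7 from 104409025 to 104465193 and had 90 UMIs in 20 nuclei of PS19 and 270 in 44 nuclei of PZKO, with log2 ratios of 1.21 (0.88 to 1.52) and 1.83 (1.63 to 2.02). *Rnf213*, a large ubiquitin ligase, had 1.88 and 2.89, and *Epsti1* 1.02 and 1.76. *Trim30a* and *Epsti1* were found in 44 and 43 of the 45 PZKO nuclei. The lowest ratio in PS19 was that of *Parp10*, which had 1 UMI there (−1.66, −6.98 to 0.85) and 30 UMIs in PZKO (2.37, 1.73 to 2.96).

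The 14 nucleic acid sensors and related genes had summed log2 ratios of 0.81 (0.62 to 0.99) in PS19 and 1.65 (1.54 to 1.76) in PZKO, and 5 and 9 of the 13 measured were at least 2-fold higher, against 10.3% and 7.22% of all genes. *Ifih1* (MDA5) had ratios of 2.05 and 2.95, *Ddx58* (RIG-I) 2.12 and 2.64, the RNA-activated kinase *Eif2ak2* 1.47 and 2.03 and the DNA sensor *Ifi204* 1.51 and 2.58. Of these, *Ifih1*, *Ddx58* and *Eif2ak2* are also in the list of other ISGs, so the lists overlap. *Aim2*, with the most UMIs of the list over all microglia, had 0.22 (−0.25 to 0.66) and 0.60 (0.30 to 0.89). The endosomal receptor *Tlr7* had −0.88 (−1.69 to −0.17) in PS19 and 0.51 (0.14 to 0.86) in PZKO, and the adaptor *Mavs* 0.61 and 0.08, with intervals that include 0.

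The list of signalling genes held receptors, kinases and transcription factors, and shared *Stat2* and *Irf7* with the other ISGs. *Stat2*, which encodes one of the factors activated at IFNAR, had ratios of 1.92 (1.39 to 2.41) and 2.75 (2.42 to 3.07), and *Irf7* and *Usp18* are given above. The receptor subunits *Ifnar1* (0.67 and 0.55), *Ifnar2* (0.04 and 0.03), *Ifngr1* (−0.16 and −0.12) and *Ifngr2* (−0.64 and −0.15) all had intervals that include 0 in both libraries, as did *Jak1* (0.25 and 0.22) and *Irf8* (−0.00 and −0.15). *Jak2* had 0.77 (0.04 to 1.41) and 1.10 (0.62 to 1.55). Over the 16 measured genes of the list, 4 in PS19 and 6 in PZKO were at least 2-fold higher (10.3% and 7.22% of all genes).

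No transcript of an interferon was found in these nuclei. The 10 interferon genes searched (*Ifnb1*, 4 *Ifna* genes, *Ifnk*, *Ifne*, *Ifng*, *Ifnl2* and *Ifnl3*) had 0 UMIs in the interferon-responsive microglia of either library, and 1 UMI of *Ifng* was counted in PZKO microglia. Over all nuclei that passed the filter *Ifnk* had 7 UMIs in each library, *Ifng* 1 in PS19 and 6 in PZKO, *Ifna2* 1 in PS19 and *Ifnb1* 1 in PZKO. At 125316 and 231781 UMIs in all, a transcript as rare as these would not be detectable.

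The GTPases that interferon gamma also induces had summed log2 ratios of 1.72 (1.38 to 2.05) in PS19 and 2.57 (2.37 to 2.77) in PZKO, with 10 and 11 of 12 measured genes at least 2-fold higher (10.3% and 7.22% of all genes). *Gbp2*, *Gbp3*, *Gbp6* and *Tgtp2* reached the minimum only through the members, and of the other 8 genes 7 were at least 2-fold higher in each library (9.79% and 6.82% of genes with that minimum in other microglia). *Gbp5*, a guanylate-binding protein, had 2.24 (0.84 to 3.39) and 3.43 (2.73 to 4.10), and *Irgm2* 1.40 and 1.89. *Irgm1*, with 5 UMIs in PS19 against 47 in PZKO, stood apart only in the latter, with ratios of 0.04 (−1.61 to 1.29) and 2.55 (2.04 to 3.04).

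Several chemokine and cytokine genes were high in a few nuclei. The summed ratios of the list were 1.99 (1.79 to 2.18) in PS19 and 2.05 (1.89 to 2.21) in PZKO, with 7 and 9 of 14 measured genes at least 2-fold higher (10.3% and 7.22% of all genes), of which *Ccl5* reached the minimum only through the members. Without nuclei of a second type the PS19 ratio lay higher (2.30 to 2.69) and the PZKO ratio was 1.91. Much of the PS19 sum of 255 UMIs lay in the 2 nuclei rich in *Tnf* that are described below. The list was not summed without them, so the PS19 ratio does not show a rise across the group. *Il15*, with the most UMIs of the list over all microglia, had 15 UMIs in 9 PS19 nuclei (0.30, −0.55 to 1.04) and 60 in 24 PZKO nuclei (1.51, 1.09 to 1.91). *Tnf*, the first gene of the ranking, had ratios of 4.84 in PS19 and 4.36 in PZKO, but its 50 PS19 UMIs lay in 2 nuclei and 86.5% of its 37 PZKO UMIs in 1. *Ccl4* (2.78 and 2.59) had 74.2% and 62.5% of its UMIs in 1 nucleus.

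The nuclei rich in *Tnf* differed between the libraries. Both PS19 nuclei had been chosen through *Cxcl10* alone, with 3 and 4 UMIs. They held 21 and 29 UMIs of *Tnf*, 13 and 34 of *Il1b* and 15 and 46 of *Ccl4*, but 18.7 and 15.9 UMIs of other ISGs per 10000, below the 39.3 of other PS19 microglia. The PZKO nucleus had 31 selecting UMIs from 6 genes, 32 UMIs of *Tnf*, 40 of *Ccl4*, none of *Il1b* and 389 UMIs of other ISGs per 10000. *Il1b* in all had 48 UMIs in PS19 and 4 in PZKO members. *Ccl12*, which attracts monocytes, had 17 UMIs in 5 PS19 nuclei (1.86, 1.04 to 2.59), of which 12 were in one of these *Tnf*-rich nuclei. In PZKO its 122 UMIs lay in 15 nuclei (3.55, 3.21 to 3.89), with 22.1% in 1 nucleus.

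Antigen presentation genes of class I and class II were taken as 1 list. Summed over its 22 genes the log2 ratios were 0.64 (0.47 to 0.80) in PS19 and 1.27 (1.15 to 1.38) in PZKO, with 9 and 11 genes at least 2-fold higher (10.3% and 7.22% of all genes) and 1 and 1 lower (10.5% and 14.3%). Leaving out nuclei of a second type, they were 0.23 (0.00 to 0.46) and 1.05 (0.93 to 1.17). *Nlrc5*, which drives transcription of class I genes, had 1.29 (0.79 to 1.75) and 2.57 (2.31 to 2.82), *B2m*, the light chain of class I, −0.13 (−0.65 to 0.35) and 0.89 (0.56 to 1.21), and the checkpoint ligand *Cd274* 0.52 (−0.45 to 1.35) and 2.17 (1.75 to 2.57). The class II chaperone *Cd74* had 1.30 in PS19, of which 42 of 47 UMIs were in the nucleus with ependymal genes, and 0.03 in PZKO. Its PS19 ratio was −1.39 without such nuclei.

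Genes of disease-associated microglia (DAM, the state around amyloid and tau pathology) had opposite signs in the libraries. Their summed log2 ratio over 29 genes was −0.37 (−0.47 to −0.28) in PS19 and 0.38 (0.31 to 0.45) in PZKO. The PS19 value was −0.04 (−0.14 to 0.06) without nuclei of a second type and lay above 0 when nuclei were chosen by selecting UMIs per 10000 or filtered more strictly, so that its sign is not settled. *Apoe*, a lipid carrier and the most abundant of the list, had 1396 CPM against 2792 CPM in other microglia of PS19 (interval of the log2 ratio −1.22 to −0.78) and a ratio of 0.21 (0.03 to 0.37) in PZKO. *Axl*, a receptor for dying cells that is also an ISG, had 0.26 and 1.39 (1.07 to 1.70), the oxidase subunit *Cybb* 0.52 and 2.16, *Cst7* 0.17 and 1.92 and *Spp1* −2.41 and 0.38. *Csf1* stood out in PS19 with 1.73 (1.37 to 2.07) against 0.17 in PZKO. The median over the 29 genes was −0.42 and 0.26. Of these genes, 1 in PS19 and 5 in PZKO were at least 2-fold higher (10.3% and 7.22% of all genes), and 5 and 2 at least 2-fold lower (10.5% and 14.3%).

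A narrower set of 6 DAM genes (*Itgax*, *Cst7*, *Lpl*, *Axl*, *Gpnmb* and *Csf1*) had summed ratios of 0.70 (PS19) and 0.82 (PZKO). The values were 1.19 (0.96 to 1.42) and 0.72 without nuclei of a second type, so that the order of the libraries turned. In PS19 *Csf1* was the 1 gene of the 6 with an interval above 0 (6.89% of all genes), the median was 0.31, and 5 of the 24 nuclei held 118 of the 168 UMIs, both *Cxcl10*-chosen *Tnf*-rich nuclei among them. In PZKO 4 of the 6 had intervals above 0 (8.96% of all genes) and the median was 0.91. At least 3 UMIs of these genes were found in 14 of 24 PS19 and 30 of 45 PZKO members (58.3% and 66.7%), and in 35.9% and 38.7% of other microglia. At an even depth of 2000 UMIs the mean shares were 33.5% and 34.1% against 23.7% and 19.9%. Among other microglia, those with at least 3 UMIs of the 6 genes had a median log2 ratio of the other ISGs of 0.23 in PS19 and 0.18 in PZKO over the rest.

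Homeostatic genes were slightly lower by sum, with log2 ratios of −0.34 (−0.41 to −0.26) in PS19 and −0.19 (−0.24 to −0.13) in PZKO. The values were 0.03 (−0.05 to 0.12) and −0.32 (−0.38 to −0.27) without nuclei of a second type. *Tgfbr1*, the most abundant, had −0.26 and −0.12, the purine receptor *P2ry12* −0.39 and −0.22, *Siglech* −0.59 and −0.86 and *Bin1* −0.52 and −0.72. None of the 24 genes was at least 2-fold higher in either library, against 10.3% and 7.22% of all genes. At least 2-fold lower were 1 in PS19 and 0 in PZKO, against 10.5% and 14.3% of all genes.

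Genes of the NF-κB pathway had summed log2 ratios of 0.64 (0.45 to 0.82) and 0.74 (0.60 to 0.87), and of 1.01 (0.81 to 1.21) and 0.60 (0.46 to 0.74) without nuclei of a second type, where the order of the libraries turned. *Nfkb1*, its most abundant member, had 0.53 (0.19 to 0.86) and 0.71 (0.47 to 0.94), and the inhibitor *Tnfaip3* 2.08 (1.12 to 2.92) in PS19 and 0.28 (−0.97 to 1.30) in PZKO. Of the 16 measured members, 4 and 5 were at least 2-fold higher, against 10.3% and 7.22% of all genes, and 2 and 0 at least 2-fold lower (10.5% and 14.3% of all genes). Of the effectors of cell death downstream of ZBP1, *Ripk3* had 0 and 1 UMIs and *Mlkl* 1 and 7 UMIs, too few to compare. *Casp8* had 0.70 (0.04 to 1.29) and −0.55 (−1.29 to 0.11). The necroptosis list, with *Cflar* the most abundant, had summed ratios of 0.30 (−0.08 to 0.66) and 0.35 (0.07 to 0.62). Of its 4 measured genes, 2 in each library had intervals above 0 (6.89% and 8.96% of all genes). Without nuclei of a second type the sums were 0.35 (−0.11 to 0.77) and 0.13 (−0.17 to 0.42). Cell cycle genes had 22 and 29 UMIs in all, with ratios of −0.22 (−0.90 to 0.39) and 0.40 (−0.20 to 0.94).

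**Figure D4:**
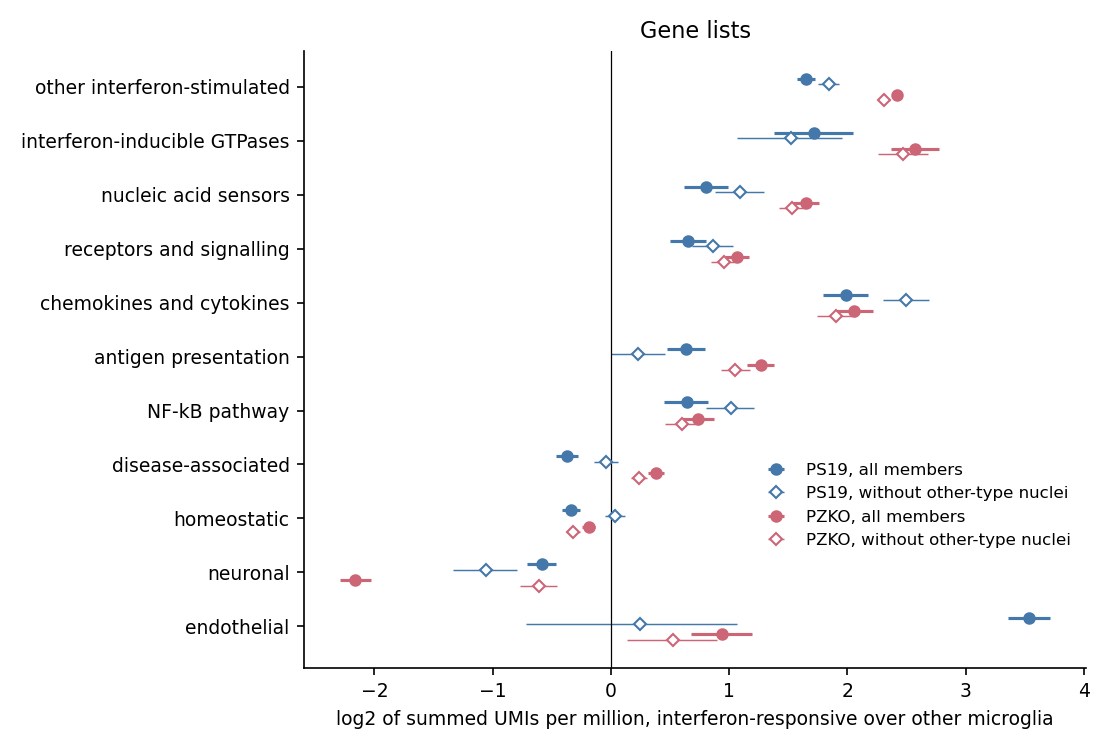
Log2 ratio of the summed CPM of each gene list in interferon-responsive over other microglia, for PS19 and PZKO, with exact 95% intervals for counting error and open symbols without nuclei of a second type. Interferon lists lie above 0 in both libraries while the endothelial list in PS19 moves from 3.54 to 0.25 once nuclei of a second type are left out.

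At least 2-fold lower in interferon-responsive microglia were 10.5% of genes in PS19, 14.3% in PZKO and 2.56% (309 genes) in both. The 10 leading genes of this direction are known from neurons or oligodendrocyte precursors, among them *Dpp10* (−5.24 and −5.10), *Cntnap2* (−2.62 and −3.65), *Nrxn3* (−2.48 and −4.03), *Snhg11* (−2.35 and −2.72) and *Meg3* (−2.16 and −3.33). Neuronal RNA in all moved with them. The 15 neuronal marker genes summed to 6847 CPM in other PS19 and 9411 CPM in other PZKO microglia, against 4564 and 2105 CPM in interferon-responsive ones, and *Celf2* had the most UMIs over all microglia. Their log2 ratios were −0.58 and −2.16, and −1.06 and −0.61 without nuclei of a second type, so that the library with the lower value changed. Without nuclei of a second type *Dpp10* was at −1.05 and −1.68 and *Meg3* at −3.21 and −0.64, and 53 of the 309 genes stayed at least 2-fold lower. When only microglia with neuronal genes under 20 UMIs per 10000 were kept on both sides, *Dpp10* was at −0.64 and −0.24, *Meg3* at −0.31 and 0.20 and *Snhg11* at −0.60 and 0.44, and 167 genes were at least 2-fold lower in both libraries. The ratios of these 3 genes thus lay nearer 0, or above it, where neuronal RNA was low, as did *Cntnap2* (−0.85 and −0.48). *Nrxn3* was at −0.87 in PZKO, but in PS19 it was at −3.26, further from 0 than its −2.48 in all microglia. The remaining genes of the 10 (*Sgcz*, *Khdrbs2*, *Pcdh15*, *Ppp2r2b* and *Hs3st4*) had 0 to 3 UMIs in the members of each library.

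Marker lists of vascular and T cells also moved with the group. Endothelial markers summed to 2769 CPM in PS19 and 595 CPM in PZKO members, against 239 and 310 CPM in other microglia, with *Flt1* having the most UMIs over all microglia, and 8 of 8 in PS19 and 2 of 8 in PZKO were at least 2-fold higher (10.3% and 7.22% of all genes), *Cldn5* among them having reached the minimum only through the members. When nuclei of a second type were left out, their log2 ratios fell from 3.54 and 0.94 to 0.25 (−0.72 to 1.06) and 0.53 (0.14 to 0.90). T cell markers, led by *Skap1*, had 48 and 138 UMIs in members and 383 and 595 CPM against 126 and 144 CPM. The defining *Cd3e* had 0 and 6 UMIs, and all 5 of the T cell genes used for the limit were at 0 once nuclei of a second type were left out. Mural and fibroblast markers were at −1.51 and 2.20, and at −1.49 and −0.49 without these nuclei. Sums were lower in both libraries for markers of macrophages (−1.12 and −1.56) and the choroid plexus (−0.52 and −1.12). The macrophage value without these nuclei was −0.57 in PS19, with an interval that includes 0. Monocyte and dendritic cell markers were at −0.39 (−0.92 to 0.09) and −0.60 (−0.99 to −0.22), so that the PS19 interval includes 0. Markers of oligodendrocytes (−0.50 and −0.09, with −0.88 in PS19 without these nuclei) and astrocytes (−0.52 and 0.03) differed little in PZKO. Those of oligodendrocyte precursors were at −0.86 and −0.62, and at −1.25 and 0.27 (−0.63 to 1.05) without these nuclei. With only microglia that had endothelial and T cell genes under 5 UMIs per 10000, the other ISGs had summed log2 ratios of 1.75 and 2.45, against 1.65 and 2.42 in all. With neuronal genes under 20 they had 1.55 and 2.15, and after Scrublet 1.51 and 2.24.

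Between the genotypes, interferon-responsive microglia of PZKO had higher levels of ISGs than those of PS19, while in other microglia the difference was near 0. The log2 ratio of PZKO over PS19 for the summed other ISGs was 0.81 (0.72 to 0.89) in members, 0.62 (0.52 to 0.71) in members without nuclei of a second type, and 0.04 (0.01 to 0.07) in other microglia. The value in members was 0.36 when nuclei with at least 2 selecting UMIs were taken and 0.37 with at least 5. Of 62 ISGs with at least 10 UMIs in members, 60 were higher in PZKO, with a median of 0.83. Over all 6670 genes of that depth 3514 were higher, with a median of 0.06. The minimum was summed over members of both libraries, so a gene high in PZKO alone could reach it through that library. In other microglia 35 of the 62 were higher, with a median of 0.02, against 3031 of the 6670 genes and a median of −0.03. Nuclei with 3 or 4 selecting UMIs were 17 of 24 in PS19 and 17 of 45 in PZKO, so this difference cannot be told apart from that in the selecting UMIs (1.55, 1.26 to 1.86, for the 7 genes).

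The difference was spread over many ISGs. Among genes with at least 50 UMIs in members of both libraries together, 7.92% of 1629 were at least 2-fold higher and 3.56% at least 2-fold lower in PZKO. Of the 37 ISGs among them 13 were higher and 0 lower. PZKO members held 231781 UMIs against 125316 in PS19, so genes high in PZKO reached this minimum more easily. The counts of ISGs are therefore a description. *Rnf213* had 1.06 (0.70 to 1.43), *Parp14* 1.07 (0.61 to 1.55) and *Ifi213* 1.18 (0.63 to 1.76). *Ddx60* (0.09, −0.36 to 0.55) did not stand apart from 0. The same held for *Ifit1* (0.06, −0.92 to 1.11) and *Ifi44* (−0.20, −1.26 to 0.92), which had fewer than 50 UMIs in members and are not among the 37. *Ifitm3*, at −1.30 (−2.37 to −0.26), went the other way, but was at 0.83 without nuclei of a second type.

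Other interferon lists had the same direction. The sensor and signalling lists share genes with the other ISGs, such as *Ifih1*, *Ddx58*, *Eif2ak2*, *Stat2* and *Irf7*. Their values are therefore not separate from those above. The sensors had a log2 ratio of PZKO over PS19 of 0.83 (0.63 to 1.04) in members and −0.01 (−0.07 to 0.05) in other microglia, and 0.53 (0.31 to 0.76) in members without nuclei of a second type. The GTPases had 0.83 (0.47 to 1.20), −0.03 (−0.17 to 0.12) and 0.98 (0.52 to 1.46) in the same order. For the signalling genes the values were 0.40 (0.22 to 0.58), −0.02 (−0.06 to 0.03) and 0.16 (−0.04 to 0.36), so that the interval includes 0 in the last case.

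Lists outside the interferon response varied in sign. The DAM genes had a log2 ratio of PZKO over PS19 of 0.11 (−0.01 to 0.22) in members and of −0.65 (−0.67 to −0.63) in other microglia, and of −0.28 (−0.40 to −0.15) in members without nuclei of a second type. Antigen presentation had 0.25 (0.06 to 0.44) in members and −0.38 (−0.43 to −0.33) in other microglia, and 0.53 (0.28 to 0.79) in members without nuclei of a second type. Chemokines and cytokines had −0.25 (−0.48 to −0.02), −0.32 (−0.41 to −0.23) and −0.78 (−1.01 to −0.54). Much of the PS19 level in members came from the 2 *Tnf*-rich nuclei, which were not among the nuclei of a second type. The list was not summed without these 2 nuclei, so its direction in the remaining members was not tested. Homeostatic genes had 0.09 (−0.00 to 0.19), −0.06 (−0.07 to −0.04) and −0.32 (−0.42 to −0.22), so that their sign in members turned. Markers of other cell types also differed between members, at −2.22 for endothelial, −1.12 for neuronal, 3.02 for mural and fibroblast and −3.05 for choroid plexus genes. In the same order they were at 0.38, 0.46, −0.70 and −2.44 in other microglia. In members without nuclei of a second type they were at 1.03, 0.22, −0.39 and −2.97.

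Among single genes, the long noncoding RNA *A330040F15Rik* was found in the most nuclei of the 5 highest, with 16 UMIs in 8 PS19 nuclei and 137 in 30 PZKO nuclei, a log2 ratio of 2.21 (1.46 to 3.06) and 1.73 without nuclei of a second type. The phosphatase *Ppm1l* had 7 UMIs in 5 nuclei and 68 in 12 (2.39, 1.27 to 3.76). The other 3 of the 5 highest came from few nuclei: *Trpm3* (3.02) and *Alcam* (2.49) had 97.4% and 94.2% of their PZKO UMIs in the nucleus with fibroblast genes, and *Cd226* (3.79) had none outside nuclei of a second type. The 5 lowest were *Il1r1*, *Mecom* and *Slco1a4*, which are expressed by endothelial cells, and the neuronal *Kcnip4* and *Nkain2*. *Il1r1* had 57 UMIs in PS19 and 0 in PZKO members and 0 in both without nuclei of a second type.

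Nuclei of other classes also reached 3 UMIs of the 7 selecting genes. At an even depth of 2000 UMIs the mean shares were 0.761% in PS19 and 3.61% in PZKO microglia, against 0.202% and 0.333% in oligodendrocytes and 0.108% and 0.0616% in neurons, where free RNA would appear as well. Unthinned, the shares in oligodendrocytes were 0.527% and 0.682% at medians of 3479 and 4416.5 UMIs, and in neurons 1.26% and 2.14% at 18394.5 and 27221 UMIs. The microglial shares thus lay above those classes in both libraries. Endothelial nuclei, at 6.18% and 9.20% after thinning, exceeded microglia in both libraries, and astrocytes at 1.63% and 1.91% exceeded them in PS19 only. The 7 genes had 68.3 CPM in PS19 and 184 CPM in PZKO microglia, 397 and 463 CPM in endothelial nuclei and 136 and 130 CPM in astrocytes.

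**Figure D5:**
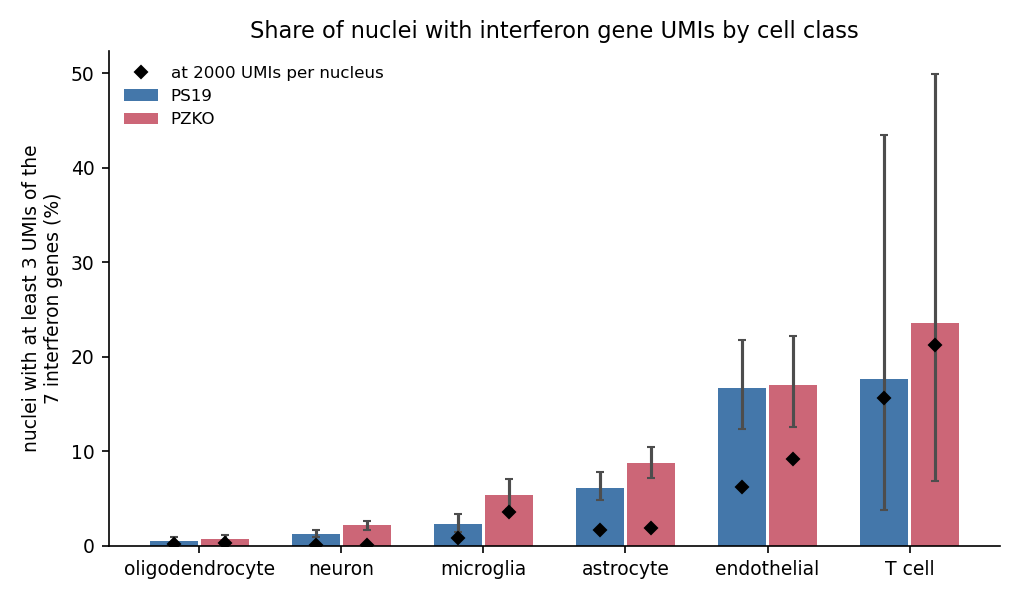
Share of nuclei with at least 3 UMIs of the 7 selecting genes in each class (percent), as counted (bars, with exact 95% intervals) for PS19 and PZKO, and after thinning to 2000 UMIs per nucleus (diamonds). Microglia move from 2.25% and 5.35% to 0.761% and 3.61% on thinning, and endothelial nuclei and T cells (17 nuclei in each library) lie highest. Of the T cell nuclei with at least 3 UMIs, 2 of 3 in PS19 and 4 of 4 in PZKO are also interferon-responsive microglia.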

How the data were processed

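Each genotype was 1 library of nuclei from male hippocampi. The labels call the tissue pooled, and the study's methods give each library as hippocampi of 5 males combined, although they also describe animals handled one by one. Nuclei could not be assigned to animals. The deposited values are raw UMI counts per gene and nucleus, which the authors made with Cell Ranger on mm10. The header of the deposited count files names version 8.0.1, while the submitters' processing notes name 7.0.1 and Seurat. The files hold 11469 PS19 nuclei with 116488513 UMIs (median 5642) and 10920 PZKO nuclei with 171167884 UMIs (median 8342.5), and 32285 genes. *Mx1*, *Mx2*, *Cxcl11* and *Clec7a* were not analysed here.

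The filter dropped nuclei below 600 UMIs or 300 genes and those whose mitochondrial share exceeded 5%. Microglia also had, per 10000 UMIs, less than 5 of *St18* and *Prr5l*, less than 10 of *Gpc5* and *Rfx4* and less than 5 of *Mrc1* and *F13a1*. No doublets were removed in the values given above, and Scrublet (scanpy 1.11.5) was an alternative. UMIs were summed over nuclei and scaled to CPM. Log2 ratios carry exact conditional (Clopper-Pearson) intervals and were computed for genes with at least 50 UMIs in microglia. A group with 0 UMIs was set to a floor of 3 counts over the group, and its ratio is a bound. A gene past 2-fold was called, with no test. The computation recovered known fold changes in simulated counts, which were drawn without differences between nuclei. It was therefore not tested for genes whose UMIs lie in few nuclei. Thinned shares are hypergeometric means at 2000 UMIs per nucleus. Genes were named by rank (20 highest and 10 lowest against other microglia, 5 in each direction between genotypes). In most lists the most abundant gene was named, and in some also the highest and lowest. Further genes were chosen after their values were seen. The members, lists and tests were chosen with earlier results of these data known. Positions are GRCm38 (GENCODE M21) and promoters RefSeq GRCm38.p6. Alternatives changed the threshold, the filters, the scaling (edgeR 4.0.16 TMM, DESeq2 1.42.0 size factors) and the gene minimum. Tools were Python 3.11.15, numpy 2.4.6, scipy 1.17.1, pandas 2.3.3, matplotlib 3.10.9 and R 4.3.3.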

Additional observations from a re-analysis of the deposited data

Results flagged for a closer look

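The summed log2 ratio of disease-associated microglia genes in interferon-responsive over other microglia was −0.37 in PS19 and 0.38 in PZKO, with opposite signs, and the difference between the libraries was not tested. The sign in PS19 is not settled, since the value was −0.041 (−0.14 to 0.06) without nuclei of a second type and 0.29 when nuclei were chosen by 5 selecting UMIs per 10000.

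Nuclei of other classes also carried at least 3 UMIs of the 7 selecting genes. They were 6.15% and 8.71% of astrocyte nuclei in PS19 and PZKO and 16.7% and 17.0% of endothelial nuclei. Of the 17 T cell nuclei in each library they were 17.6% and 23.5%. The T cell class had no limit on microglial genes. Of its nuclei with at least 3 UMIs, 2 of 3 in PS19 and 4 of 4 in PZKO were also interferon-responsive microglia.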

How the results depend on the processing

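No paired analysis was possible because each genotype had 1 library, and for the same reason no library could be left out. Values are given for PS19 and then PZKO, and the cause of a change was not tested. Of 155 alternative values of the main results, 96 stayed close, 57 moved and 2 changed sign. Of 802 for named genes, 664 stayed close, 114 moved and 24 changed sign. Close values lay inside the 95% interval of the main value, or within a set fold for numbers of genes. Where that interval was wide, as for genes with few UMIs, a large shift could still count as close. The share of microglia (2.25% and 5.35%) was 4.50% and 8.68% at 2 or more selecting UMIs, 0.657% and 3.33% at 5 or more (log2 ratio 2.34), 4.03% in PS19 at 5 per 10000, and 0.761% and 3.61% when thinned (log2 ratio 2.25). PZKO had the larger share under each of these. The other ISGs against other microglia (1.65 and 2.42) were at 1.51 and 1.82 with 2 UMIs, 2.30 and 2.60 with 5 UMIs, 1.89 in PS19 with 5 per 10000, 1.51 and 2.24 after Scrublet, 1.55 and 2.15 with neuronal genes under 20 per 10000, 1.75 in PS19 with endothelial and T cell genes under 5, 2.23 in PZKO with microglial genes at 20 or more, 1.51 and 2.32 with TMM scaling, and 1.84 and 2.31 without nuclei of a second type (chosen after seeing the data). The DAM genes (−0.37 and 0.38) were at −0.20 and 0.0053 with 2 UMIs, −0.70 in PS19 with 5 UMIs, 0.29 and 0.31 with 5 per 10000, −0.47 and 0.14 after Scrublet, −0.55 and 0.14 with fewer neuronal genes, −0.076 in PS19 with fewer endothelial and T cell genes, 0.22 in PZKO with more microglial genes, 0.000497 in PS19 with stricter filters on nuclei, −0.52 and 0.29 with TMM, 0.14 in PZKO as a mean over nuclei, and −0.041 and 0.24 without nuclei of a second type. The other ISGs of PZKO over PS19 members (0.81) were at 0.36 with 2 UMIs, 0.37 with 5 UMIs, 0.60 with 5 per 10000, 0.70 with fewer neuronal genes, 0.72 with fewer endothelial and T cell genes, 0.63 with more microglial genes, 0.91 with TMM and 0.62 without nuclei of a second type. Genes past 2-fold higher in both libraries (254) numbered 98 with a minimum of 200 UMIs, 461 with a minimum of 1, 224 with the minimum counted in other microglia alone (chosen after seeing the data) and 142 with intervals past 0. Genes past 2-fold lower (309) numbered 148 with 2 UMIs, 155 with 5 UMIs, 170 after Scrublet, 167 with fewer neuronal genes, 195 with more microglial genes, 200 without nuclei of a second type and 95 with intervals past 0.

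Named genes that changed sign were mostly neuronal. With 2 UMIs, PZKO values were 0.93 for *Dpp10*, 0.13 for *Sgcz*, 1.05 for *Khdrbs2*, 0.83 for *Cntnap2* (0.17 in PS19), 0.33 for *Nrxn3*, 0.030 for *Snhg11*, 0.18 for *Meg3* and 0.072 for *Hs3st4*. After Scrublet, *Sgcz* was at 0.40 in PS19, and in PZKO *Khdrbs2* was at 0.15, *Pcdh15* at 0.68, *Meg3* at 0.41 and *Hs3st4* at 0.31. With fewer neuronal genes, *Sgcz* was at 0.28 in PS19, and in PZKO *Pcdh15* was at 0.48, *Snhg11* at 0.44, *Meg3* at 0.20 and *Hs3st4* at 0.43. *Sgcz* in PS19 was at 0.60 with more microglial genes and 0.43 without nuclei of a second type, where *Ifi203* in PZKO was at −0.16. *Fbxl7* was at −0.62 in PZKO with 5 UMIs and −0.85 in PS19 with 5 per 10000. TMM scaling shifted all log2 ratios by −0.15 in PS19 and −0.09 in PZKO. With 24 and 45 nuclei, genes with few UMIs have wide intervals.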
